A study of Mus musculus with 16 samples.

Results

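The counts of 10 imprinted genes were examined in mouse embryonic stem cells (ESCs) with normal or reduced levels of RAM, the activating subunit of the mRNA cap methyltransferase RNMT. They were taken by name from the 46983 genes of the count table: the coding genes Igf2, Igf2r, Peg3, Peg10, Mest, Snrpn and Grb10, and the noncoding genes H19, Meg3 and Rian. The study sequenced total RNA from 46C ESCs, a line of 129Ola origin that carries GFP at Sox1, grown on gelatin with leukaemia inhibitory factor (LIF). Cells were transfected for 48 hr with an siRNA against RAM or with a non-targeting control, and all were held in cycloheximide, which stalls ribosomes on mRNA, before lysis. Of each extract, 10% was kept as input and the rest was run on a sucrose gradient, from which fractions 17 to 22 were pooled as polysomes. This gave 4 groups of 4 libraries: input and polysomes of control cells, and input and polysomes of RAM siRNA cells. All libraries come from 1 cell line, and the counts do not separate the maternal from the paternal allele.

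An imprinted gene is expressed mainly from the allele of 1 parent, because DNA methylation set in the egg or the sperm marks the 2 copies differently. Imprinted genes lie in clusters that often hold both coding genes for growth regulators and long noncoding RNAs, and H19 with Igf2 and Meg3 with Rian are textbook examples. H19, Meg3, Rian and, in most tissues but not all, Igf2r and Grb10 are expressed from the maternal copy, and Igf2, Peg3, Peg10, Mest and Snrpn from the paternal copy. Polysomes are mRNAs that carry several ribosomes, and a noncoding RNA is not a template for protein, so the fractions sort transcripts by their association with ribosomes. RNMT-RAM methylates the cap of RNA polymerase II transcripts, coding and noncoding alike.

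Members of both kinds are hosts of microRNAs, and 15 mature microRNAs in RefSeq lie within 5 of the 10 genes, none sharing a seed with another. The libraries measured the host transcripts and not the mature microRNAs. The sequences below show what is cut from the noncoding host H19, from Meg3, from Rian and from the coding host Mest, with the seed (bases 2 to 8) in capitals, from RefSeq on GRCm38.p6.
miR-675-5p (H19 exon, minus strand, chr7:142577112-142577133): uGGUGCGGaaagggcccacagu
miR-770-5p (Meg3 exon, plus strand, chr12:109563710-109563731): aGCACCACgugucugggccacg
miR-370-3p (Rian intron, plus strand, chr12:109618305-109618326): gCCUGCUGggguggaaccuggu
miR-335-5p (Mest intron, plus strand, chr6:30741314-30741336): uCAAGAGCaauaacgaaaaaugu

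Libraries held between 16647523 and 20147833 counts on genes. Ramac, which encodes RAM, had 197 to 206 counts in control input and 46 to 58 in RAM siRNA input, and 122 to 256 against 5 to 45 in polysomes. A summed level of 8 pluripotency markers, among them Pou5f1, Nanog and Sox2, was 4624 to 4949 CPM (counts scaled to a common library total) in control input and 3858 to 4454 CPM in RAM siRNA input. Tdgf1 was the largest part of it, with means of 2129 and 1892 CPM, beside 485 and 427 CPM for Pou5f1. The summed levels of markers of other lineages were far lower in input. Extraembryonic endoderm markers reached 21.2 to 23.0 and 22.4 to 31.2 CPM, trophoblast markers 15.6 to 18.6 and 12.7 to 17.1, mesoderm markers 2.76 to 4.82 and 2.77 to 4.40, neural markers 71.6 to 83.6 and 77.7 to 91.9, and fibroblast markers 8.27 to 10.0 and 10.2 to 12.6, for control and RAM siRNA cells in that order. In control input, the markers at 0 in every library included Hand2 of mesoderm, Neurog2 of neural cells and Col3a1 of fibroblasts.

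The 10 genes covered a wide range of levels in the input of control cells. Input also held mainly nuclear RNA, with Malat1 at a mean of 5236 CPM in control input, so its levels are not read as cytoplasmic levels. Compared per kilobase of exon in control input, Mest, an alpha/beta hydrolase family gene, had the highest level at 74.0 ± 3.95 CPM per kb (SD, n = 4). Igf2r, the receptor that takes IGF2 to the lysosome, followed with 43.3 ± 4.89 CPM per kb (SD, n = 4), and Rian, the host of a large group of small nucleolar RNAs, with 43.2 ± 7.83 CPM per kb (SD, n = 4). The libraries of Igf2r and Rian overlapped. A middle group overlapped from neighbour to neighbour: Peg10 at 11.0 ± 1.39, Meg3 at 8.73 ± 1.79 and Snrpn at 7.06 ± 0.790 CPM per kb (SD, n = 4). Below it, and without overlap between neighbours, came Grb10 at 5.19 ± 0.477, Peg3 at 2.63 ± 0.341, H19 at 0.890 ± 0.198 and Igf2 at 0.0372 ± 0.0101 CPM per kb (SD, n = 4). Igf2r and Rian stood above 91.0% of all genes tested by this measure, and Peg3 above 29.4%. The length is that of all annotated exons merged, which for Meg3 and Rian is 18089 and 18234 bases and may exceed the length of the RNA that the cells make, so their levels per kb are low estimates.

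H19 and Igf2, neighbours on chromosome 7 that share enhancers, were close to the limit of detection. H19 had 45, 46, 27 and 46 counts in control input, in the order of replicates 1 to 4, and Igf2 had 3, 5, 5 and 3. Igf2 held 2 to 11 counts in each RAM siRNA input library and 2 to 12 in each polysome library, so no ordering of its groups was detectable at this depth. These 2 genes failed the filter on low counts, which asks for 1 CPM or more in 10 or more libraries, and the other 8 passed it among 12805 genes tested.

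**Figure D1:**
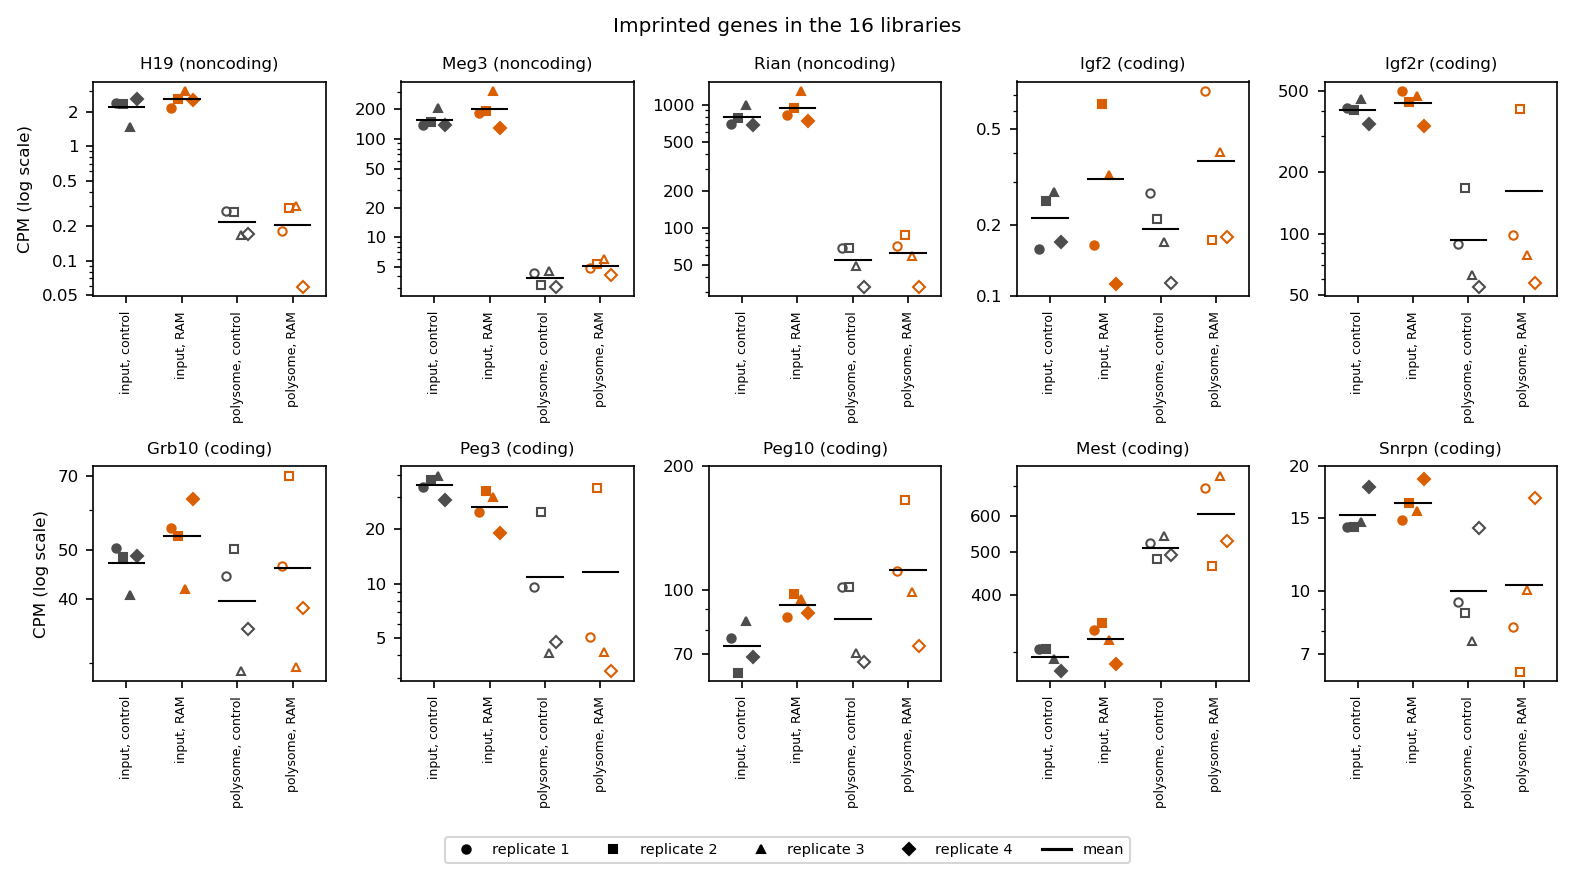
Level of each gene in the 16 libraries, in CPM on a log axis, by group (black control siRNA, orange RAM siRNA, filled input, open polysomes), with marker shapes for the replicate and a line at the mean of 4 libraries. Meg3, Rian and H19 lie lower in polysomes than in input in every library, Mest lies higher, and the replicate 2 polysome libraries lie highest for Igf2r, Peg3 and Grb10.

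The first comparison asks how coding and noncoding members were distributed between polysomes and input. The noncoding genes were far lower in polysomes than in input, while the coding genes ranged from depleted to enriched. Levels in a fraction are shares of that fraction's own RNA, so a polysome level below the input level means a smaller share of the polysomal RNA and not a number of molecules. Of the 8 genes tested in control cells, 5 were lower and 1 was higher in polysomes than in input (adjusted p under 0.05 by the Benjamini-Hochberg method in edgeR's quasi-likelihood test). Of all genes tested 67.4% passed, made up of 34.4% of all genes tested as higher and 33.0% as lower. The count by itself therefore does not set the members apart. The libraries of both fractions did not overlap for 6 of the 8, and 61.0% of all genes tested had such groups. The median log2 fold change was -1.15 over the 8 genes and 0.033 over all genes tested. The RNA of input was purified with Trizol and that of the gradient fractions with phenol and lithium chloride, and fraction and purification cannot be told apart.

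Meg3, the maternally expressed RNA that opens the noncoding part of the Dlk1-Dio3 cluster on chromosome 12 (109541001 to 109571726, plus strand, GRCm38), had 138, 147, 206 and 140 CPM in control input and 4.33, 3.28, 4.51 and 3.13 CPM in control polysomes. No polysome library came near an input library, and the polysome mean was 2.42% of the input mean. On the log2 scale polysomes were at -5.37 relative to input (standard error, SE, 0.20, adjusted p = 9.39e-09, edgeR's quasi-likelihood test). It was the lowest value among the 227 noncoding genes tested, a class of long noncoding annotation types. Of 12123 coding genes 0 lay lower. Rmrp, a noncoding RNA outside this class, lay lower at -7.27. In RAM siRNA cells Meg3 had 183, 192, 306 and 129 CPM in input and 4.88, 5.27, 6.01 and 4.09 CPM in polysomes, a log2 fold change of -5.32 (SE 0.31, adjusted p = 9.05e-07, edgeR's quasi-likelihood test).

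Rian, which lies downstream of Meg3 on the same strand (109603940 to 109661716), had the higher level per kb of the pair in input. It had 694, 782, 992 and 685 CPM in control input and 68.7, 68.3, 48.8 and 33.3 CPM in control polysomes. Here too the fractions were far apart in every replicate, with a log2 fold change of -3.85 (SE 0.25, adjusted p = 3.03e-07, edgeR's quasi-likelihood test) in control cells and -3.92 (SE 0.33, adjusted p = 9.81e-06) in RAM siRNA cells. In control cells, 6 of the 12123 coding and 17 of the 227 noncoding genes lay lower than Rian. The Rian polysome mean was 6.94% of the input mean.

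H19, for which the counts are few, also lay lower in polysomes. Its control libraries held 164 counts in input and 16 in polysomes over the 4 replicates, a ratio of library-scaled levels of 0.101 (exact 95% interval 0.0561 to 0.168, counting error only). In RAM siRNA cells the sums were 184 and 15, a ratio of 0.0827 (0.0453 to 0.140). No H19 polysome library reached the level of any input library. The two-sided exact permutation test gave p = 0.0286 in each case, the smallest that 4 against 4 libraries allow, and 0.114 after adjustment over the 8 tests run for H19 and Igf2. With the filter relaxed to 1 CPM in 4 libraries, H19 could be fitted with all other genes and its log2 fold changes were -3.25 (control) and -3.47 (RAM siRNA) (adjusted p = 3.38e-06 and 2.03e-05 in edgeR's quasi-likelihood test). Under that filter 35.5% of genes in control and 28.1% in RAM siRNA cells were lower in polysomes.

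Depletion from polysomes was the rule among noncoding genes. In control cells 90.3% of the 227 noncoding genes tested were lower in polysomes and 3.08% higher, against 31.9% and 35.0% of the 12123 coding genes, and the medians were -2.06 and 0.05 on the log2 scale. In RAM siRNA cells 88.1% of noncoding and 24.9% of coding genes were lower. All 5 other imprinted noncoding genes tested were lower: Nespas, antisense to Nesp at the Gnas locus, by a log2 fold change of -5.03, Snhg14, the long host transcript of the Snrpn cluster, by -4.06, Mirg, the microRNA host beyond Rian, by -3.95, Peg13 by -2.11 and Kcnq1ot1, the silencing RNA of the Kcnq1 cluster, by -1.91. In RAM siRNA cells 4 of these 5 were lower, and Kcnq1ot1 had a log2 fold change of -1.10 with an adjusted p of 0.091 (0.0017 in control cells, edgeR's quasi-likelihood test). With the block all 5 were lower, and Kcnq1ot1 was at -1.43 with an adjusted p of 0.0177.

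Well known noncoding RNAs outside imprinted clusters gave a scale for these values. All 11 such genes tested were lower in control polysomes. Rmrp, the RNA of the RNase MRP particle, was lower by a log2 fold change of -7.27. The mainly nuclear RNAs Rn7sk (-5.16), Malat1 (-5.03) and Neat1 (-4.43) lay next to Meg3. The small nucleolar RNA hosts Snhg3 (-4.22), Snhg8 (-3.60), Gas5 (-3.55), Snhg12 (-3.52) and Snhg1 (-3.46), together with Tug1 (-3.17) and Epb41l4aos (-3.10), lay on both sides of Rian. The value of H19 from the relaxed filter lay between those of Snhg1 and Tug1.

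**Figure D2:**
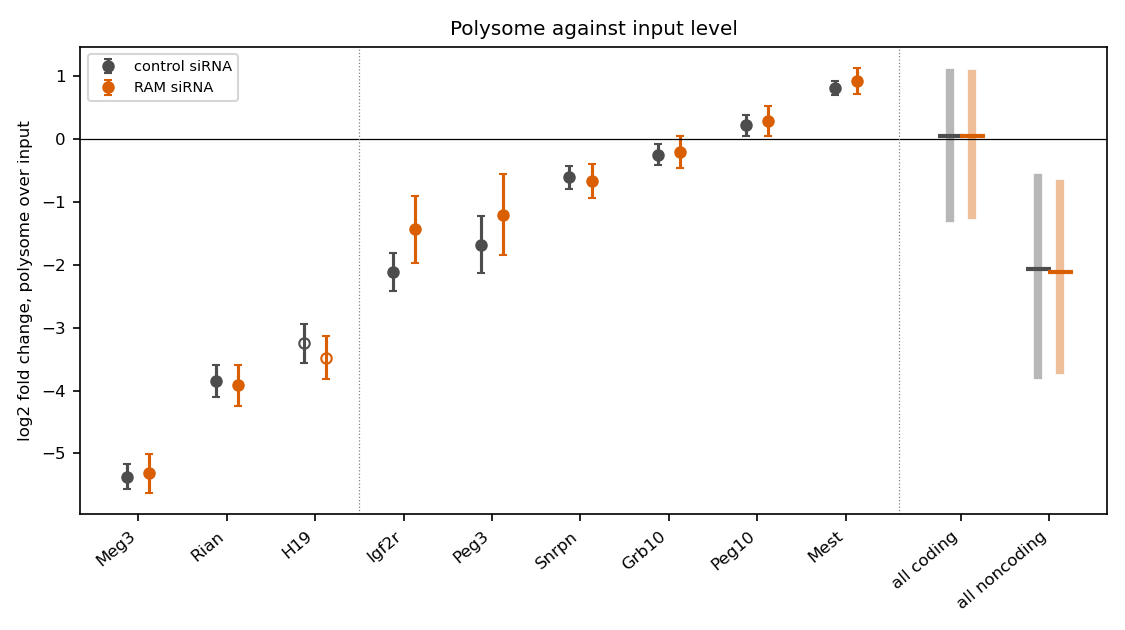
Log2 fold change of polysomes over input with its standard error, in control cells (black) and RAM siRNA cells (orange), for the noncoding and the coding genes. H19 (open) is from the fit with the relaxed filter. The bars at the right span the 10th to the 90th percentile of all coding and all long noncoding genes tested, with a line at the median. Meg3 and Rian lie below the median of noncoding genes, and only Mest among the coding genes lies above 0 by more than 2 standard errors in both.

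Among the coding genes, Mest was enriched in polysomes. It had 303, 304, 289 and 271 CPM in control input and 523, 483, 543 and 493 CPM in control polysomes, so every polysome library exceeded every input library. The log2 fold change was 0.81 (SE 0.11, adjusted p = 6.8e-05, edgeR's quasi-likelihood test) in control cells and 0.92 (SE 0.20, adjusted p = 0.0034) in RAM siRNA cells. Of the 3672 coding genes with 2 to 4 kb of exon, 69.9% lay below Mest in control cells. Mest shares 912 exonic bases with Copg2 on the opposite strand, and the strand setting of the counting is not given in the sources used here.

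Peg10, a retrotransposon-derived gene read through a programmed frameshift, and Grb10, an adaptor that restrains insulin and IGF receptor signalling, did not pass the test between the fractions. Peg10 had 76.8, 63.2, 84.5 and 68.8 CPM in control input and 102, 102, 70.7 and 67.2 CPM in polysomes, with a log2 fold change of 0.22 (SE 0.17, adjusted p = 0.251, edgeR's quasi-likelihood test). Grb10 had 50.6, 48.4, 40.8 and 48.8 CPM in input and 44.6, 50.2, 28.8 and 34.9 CPM in polysomes, with a log2 fold change of -0.25 (SE 0.17, adjusted p = 0.197). For each of them the fractions overlapped in control and in RAM siRNA cells.

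Snrpn, which encodes the Sm protein SmN of the spliceosome, was moderately lower in polysomes. It had 14.2, 14.3, 14.7 and 17.8 CPM in control input and 9.37, 8.85, 7.56 and 14.2 CPM in control polysomes. The highest polysome library lay just below the lowest input library, and the log2 fold change was -0.61 (SE 0.19, adjusted p = 0.0121, edgeR's quasi-likelihood test). Without replicate 1 or without replicate 3 the adjusted p was 0.0502 and 0.0578. In RAM siRNA cells it was -0.66 (SE 0.27, adjusted p = 0.0554), and -0.74 (adjusted p = 0.0154) with the replicate number as a block. Snrpn shares 589 exonic bases on the same strand with Gm38393, whose annotated exons had 88.0 ± 5.56 CPM (SD, n = 4) in control input and a polysome to input log2 fold change of -4.46 (adjusted p = 1.99e-06, edgeR's quasi-likelihood test). How reads in shared exons were assigned is not given in the sources used here, so the Snrpn values are uncertain, and Snurf, the upstream reading frame of the same transcript, was listed at 0 counts in every library.

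The long coding genes Igf2r and Peg3 were strongly depleted from control polysomes. Igf2r had 409, 404, 455 and 344 CPM in control input and 89.0, 167, 62.9 and 55.0 CPM in control polysomes, a log2 fold change of -2.11 (SE 0.30, adjusted p = 7.79e-05, edgeR's quasi-likelihood test). Only 244 of the 12123 coding genes lay lower. Peg3, a zinc finger protein gene, had 34.3, 37.4, 39.4 and 28.9 CPM in input and 9.58, 25.1, 4.12 and 4.72 CPM in polysomes, a log2 fold change of -1.68 (SE 0.45, adjusted p = 0.00585). In both genes every control polysome library lay below every input library, and in both the replicate 2 polysome library was the highest.

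In RAM siRNA polysomes replicate 2 stood much further from the rest. Igf2r had 98.7, 408, 79.0 and 57.3 CPM there, and Peg3 had 5.06, 33.8, 4.21 and 3.26 CPM. The polysome to input log2 fold changes in RAM siRNA cells were -1.44 for Igf2r (SE 0.54, adjusted p = 0.0433, edgeR's quasi-likelihood test) and -1.20 for Peg3 (SE 0.65, adjusted p = 0.139). Without replicate 2, Igf2r was at -2.55 in control and -2.47 in RAM siRNA cells, and Peg3 at -2.47 and -2.56. With the replicate number as a block, RAM siRNA cells gave -1.94 (adjusted p = 0.00505) for Igf2r and -1.89 (adjusted p = 0.00833) for Peg3. Across RAM siRNA cells, 4 of the 8 genes tested passed without the block (53.3% of all genes tested did) and 6 with it (59.2%), Peg3 and Snrpn being added. Without 1 replicate other than replicate 2, the call of Igf2r in RAM siRNA cells was lost, with log2 fold changes of -1.20 (without replicate 1), -1.18 (without replicate 3) and -1.21 (without replicate 4).

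Exon length moved with these values. Igf2r has 9308, Peg3 13324 and Grb10 9089 bases of merged exon. Over the 2251 coding genes of 8 kb and over, the median polysome to input log2 ratio of control replicates 1 to 4 was -0.39, -0.25, -0.71 and -0.68, and that of RAM siRNA replicates was -0.50, -0.05, -0.78 and -0.77. Coding genes with 2 to 4 kb of exon had a fitted median of 0.43 in control cells. Replicate 2 had the value nearest 0 among long genes in both groups, and it is also the replicate in which Igf2r, Peg3 and Grb10 lay highest. Among genes of its own length class in control cells, Igf2r lay above 4.58%, Peg3 above 11.2% and Grb10 above 62.2%, so long genes differed widely from each other. The part of RNA length or integrity in the values of the long genes was not tested.

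**Figure D3:**
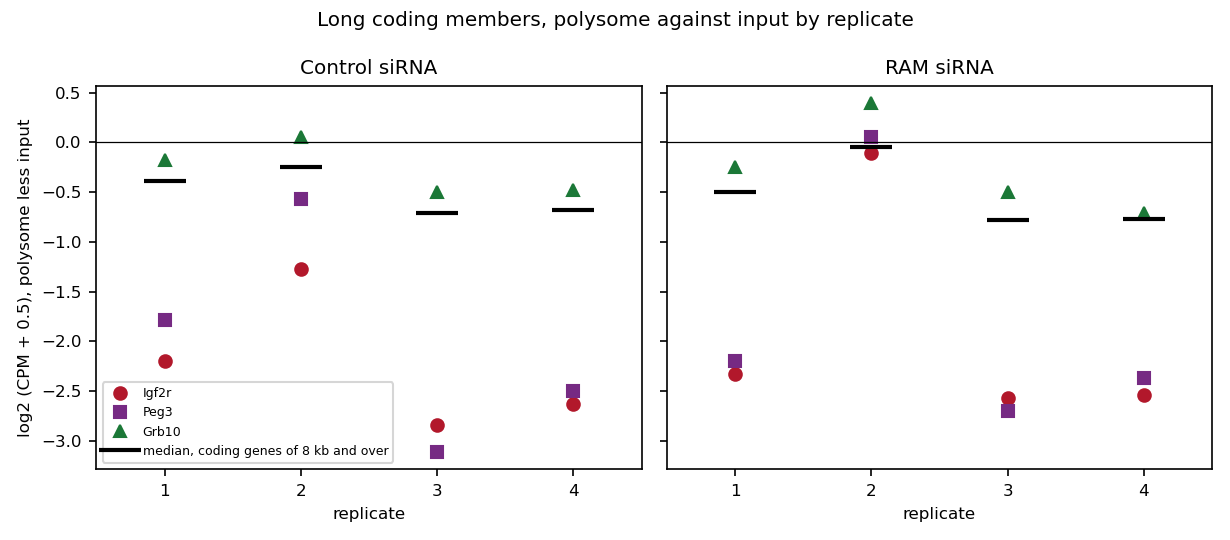
Log2 difference of polysome and input level (CPM plus 0.5) in each replicate for the 3 coding genes with over 8 kb of exon, with a black line at the median of the 2251 coding genes of 8 kb and over. Igf2r and Peg3 lie near 0 in replicate 2 of RAM siRNA cells and between -2.70 and -2.20 in the other 3 replicates, and Grb10 stays close to the line.

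The second comparison asks which members differed in input level after RAM siRNA. Log2 fold changes in input lay between -0.39 and 0.36, and Peg10 was the only member called without the replicate number as a block. With the block, 5 members were called higher and 1 lower. Peg10 had 76.8, 63.2, 84.5 and 68.8 CPM in control and 86.4, 98.2, 95.2 and 88.2 CPM in RAM siRNA input. All RAM siRNA libraries lay above all control libraries (18.0% of genes tested had groups that did not overlap). Peg10 was higher in 4 of 4 same-numbered pairs, as were Rian, Mest, Snrpn and Grb10. The log2 fold change of Peg10 was 0.33 (SE 0.09, adjusted p = 0.0338, edgeR's quasi-likelihood test). The call was lost without replicate 1 (log2 fold change 0.38, adjusted p = 0.121), without replicate 2 (0.23, adjusted p = 0.244) and without replicate 4 (0.30, adjusted p = 0.0633). The 1 member called of 8 stands beside 12.9% of all genes tested. In these bulk libraries, a change in the share of cells with a transcript and a change in its level per cell cannot be told apart.

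Peg3 was the member with a lower value. It had 25.0, 32.7, 30.0 and 18.95 CPM in RAM siRNA input, and each library was below its same-numbered control library, although the groups overlapped. The log2 fold change was -0.39 (SE 0.15, adjusted p = 0.102, edgeR's quasi-likelihood test). With the replicate number as a block it was -0.40 (SE 0.06, adjusted p = 3.83e-05). Peg3 also passed without replicate 4 (adjusted p = 0.0322), with replicates 1 and 2 only and with no filter on low counts, and under the other alternatives it did not.

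The noncoding pair Meg3 and Rian had higher mean levels in RAM siRNA input, in groups that overlapped. Replicate 3 was the highest library of both genes in control and in RAM siRNA input alike. Meg3 had a log2 fold change of 0.36 (SE 0.21, adjusted p = 0.301, edgeR's quasi-likelihood test) and was higher in 3 of 4 same-numbered pairs, with a lower value in replicate 4. Rian had 830, 939, 1287 and 741 CPM in RAM siRNA input and was higher in 4 of 4 pairs, with a log2 fold change of 0.27 (SE 0.16, adjusted p = 0.32). With the block the values were 0.32 for Meg3 (adjusted p = 9.62e-04) and 0.25 for Rian (adjusted p = 1.77e-04). H19 had 39, 44, 56 and 45 counts in RAM siRNA input, a ratio to control of 1.17 (exact 95% interval 0.942 to 1.45) and a two-sided exact permutation p of 0.371.

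The other coding members had small positive estimates. Mest, Grb10, Igf2r and Snrpn had log2 fold changes of 0.14, 0.18, 0.11 and 0.10 in input, each with an adjusted p of at least 0.313 in edgeR's quasi-likelihood test and with overlapping groups. With the block, Mest (0.13, adjusted p = 0.0158) and Grb10 (0.17, adjusted p = 0.0146) passed and Igf2r (adjusted p = 0.0897) and Snrpn (adjusted p = 0.289) did not. This made 6 of 8 members called with the block, 5 higher and 1 lower, beside 39.4% of all genes tested. Their median log2 fold change without the block was 0.16, against 0.003 over all genes tested.

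**Figure D4:**
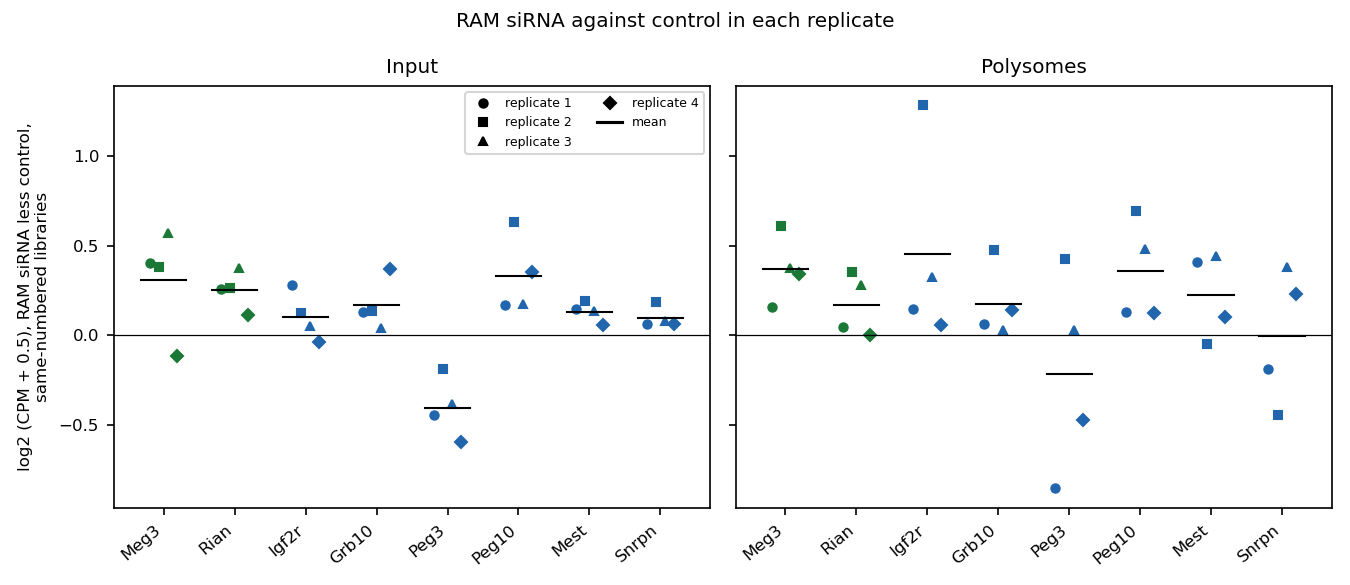
Log2 difference of RAM siRNA and control level (CPM plus 0.5) between same-numbered libraries in input and in polysomes, green for noncoding and blue for coding genes, with a line at the mean of 4 pairs. In input all 4 pairs lie above 0 for Peg10, Rian, Mest, Snrpn and Grb10 and below 0 for Peg3. In polysomes replicate 2 of Igf2r lies at 1.29.

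Of the neighbours of Meg3 and Rian that were tested, Dlk1 and Dio3 were called higher in input and Mirg was not. Dlk1, a transmembrane Notch-family ligand that is the first coding gene of the cluster, went from 1.75 ± 0.546 to 4.03 ± 0.670 CPM (SD, n = 4), a log2 fold change of 1.21 (SE 0.22, adjusted p = 0.00385, edgeR's quasi-likelihood test). Dio3, the deiodinase at the far end, went from 5.96 ± 1.29 to 10.4 ± 2.50 CPM (SD, n = 4), a log2 fold change of 0.81 (adjusted p = 0.0132). Mirg, noncoding like Meg3 and Rian, was at 0.37 (adjusted p = 0.206), and at 0.35 (adjusted p = 2.19e-05) with the block. By their usual imprinting these coding genes are expressed from the paternal copy and the noncoding genes from the maternal copy. The tested genes of both kinds had positive estimates in this cluster, and the allele of origin was not measured. The call of Dlk1 was lost without replicate 1 (1.07, adjusted p = 0.0646) and that of Dio3 without replicate 2 (0.74, adjusted p = 0.0702). That the coding genes of the cluster differed more than the noncoding ones was not tested.

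Other imprinted coding genes had calls in 1 direction without the block. Of 53 listed, 33 were tested in input, of which 12 were higher and 0 lower, beside 7.14% higher and 5.81% lower among all genes tested. Their median log2 fold change was 0.28, against 0.003 over all genes tested. Besides Dlk1 and Dio3 the smallest p-values were those of Blcap (log2 fold change 0.32), H13, a signal peptide peptidase (0.30), Cdh15, a cadherin of muscle (0.93), and Nnat, neuronatin (0.48), each with an adjusted p under 0.05 in edgeR's quasi-likelihood test. Dlk1, Cdh15 and Gatm, all among the 12, had few reads, with control input means of 1.75, 0.816 and 0.691 CPM. Cdh15 and Gatm averaged under 1 CPM there, so they passed the filter through the other groups, where their means were higher. RAM siRNA input was 1 of these groups, so these 2 calls were not independent of the filter. The count depended on the replicates: it was 1 (Dio3) without replicate 1 and 2 without replicate 2 (Dlk1 and Ndn, necdin, the latter at an adjusted p of 0.0477 there and 0.0567 with all replicates), and 20 with the block (19 higher and 1 lower). The medians of the list without replicate 1 and without replicate 2 were 0.28 and 0.26. None of the 5 other imprinted noncoding genes tested was called in input, and 2 were with the block, Mirg and Snhg14, both higher.

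**Figure D5:**
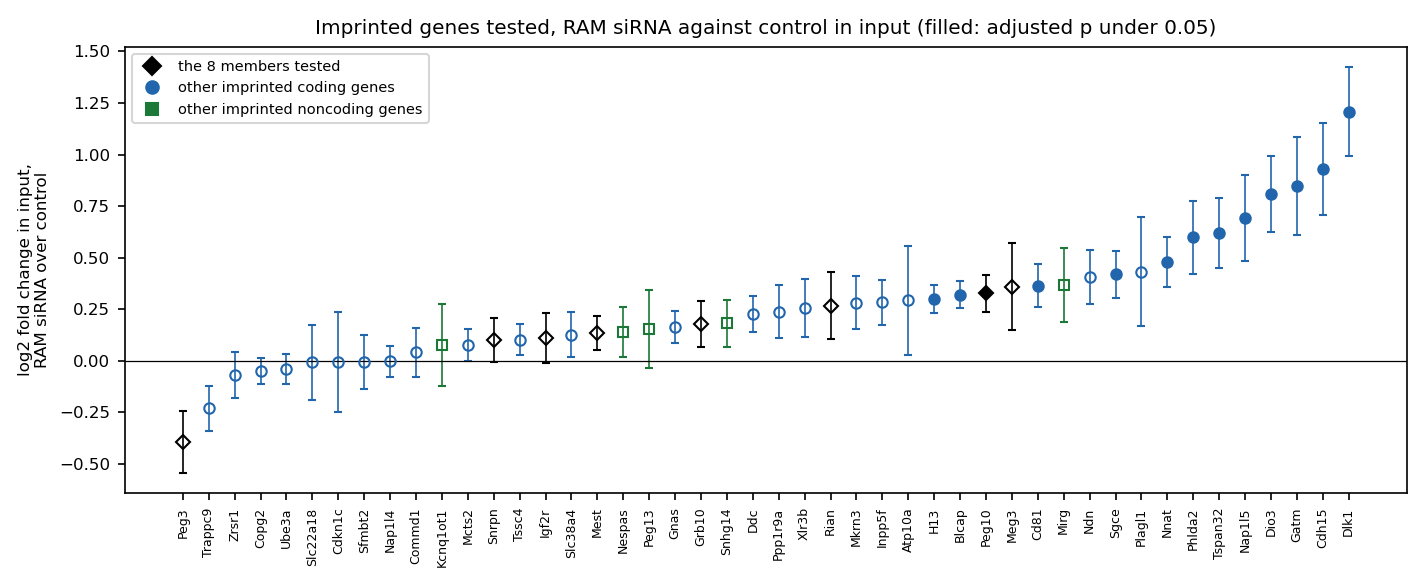
Log2 fold change in input, RAM siRNA over control, with its standard error, for the 8 members (black), 33 other imprinted coding genes (blue) and 5 other imprinted noncoding genes (green) tested, ordered by value and filled where the adjusted p was under 0.05. Peg10 and 12 of the other coding genes are filled, all above 0, and Peg3 has the lowest value of all.

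Of 12 listed genes that act on DNA methylation or imprints, 2 were called in input, 1 in each direction, beside 12.9% of all genes tested. Tet1 and Tet2 are in this list, so not all of its genes set or keep imprints. Uhrf1, which brings DNMT1 to newly copied DNA, was lower in RAM siRNA input with a log2 fold change of -0.37 (301 ± 18.1 to 234 ± 23.8 CPM, SD, n = 4, adjusted p = 0.0147, edgeR's quasi-likelihood test). Dnmt3l, the cofactor of the de novo methyltransferases, was higher by 0.56 (100 ± 16.6 to 148 ± 26.4 CPM, SD, n = 4, adjusted p = 0.0187). The other 10, among them Zfp57 and Trim28, which protect imprinted methylation in ESCs, and Dnmt1, did not pass without the block. Both calls were lost without replicate 1 (adjusted p = 0.124 for Uhrf1 and 0.109 for Dnmt3l) and without replicate 2 (0.116 and 0.126). With the block 3 of the 12 were higher and 5 lower, beside 39.4% of all genes tested. Zfp57 was among the higher (0.17, adjusted p = 0.00673, edgeR's quasi-likelihood test). Dnmt1 (-0.22, adjusted p = 2.89e-04), Tet1 and Tet2 were among the lower, and Trim28 was not called (adjusted p = 0.851). Methylation itself was not measured.

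In the pathway of Igf2, Igf2r and Grb10, 3 IGF binding protein genes were called higher in input and the receptors were not called. Of 12 genes listed 9 were tested, and these 3 were the ones called, beside 7.14% higher among all genes tested. Igfbp4 had a log2 fold change of 1.55 (2.84 ± 0.766 to 8.29 ± 0.902 CPM, SD, n = 4, adjusted p = 2.23e-04, edgeR's quasi-likelihood test). Igfbp3 was higher by 0.66 (27.0 ± 2.47 to 42.7 ± 2.74 CPM, SD, n = 4, adjusted p = 5.06e-04) and Igfbp2 by 0.31 (adjusted p = 0.0478). The call of Igfbp2 was lost under RLE (adjusted p = 0.0596) and library-size scaling (0.0718) and without replicates 1, 2 or 3, one at a time. These secreted proteins hold IGF1 and IGF2 outside the cell. The receptor Igf1r was at 0.08 and Insr at 0.09, and the mRNA binding protein Igf2bp3 at -0.21 (adjusted p = 0.106, and 7.37e-04 with the block).

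In polysomes, RAM siRNA gave no call for any member. The count was 0 of 8 in edgeR's quasi-likelihood test, with DESeq2 and with the block, beside 0.0234% of all genes tested without and 15.2% with the block. Without the block, 0 members had an unadjusted p under 0.05 in edgeR's quasi-likelihood test. The largest estimate was that of Igf2r, with a log2 fold change of 0.78 (SE 0.61, adjusted p = 0.86), which was 0.18 without replicate 2. Peg10, the gene called in input, had 102, 102, 70.7 and 67.2 CPM in control and 112, 166, 99.0 and 73.4 CPM in RAM siRNA polysomes, higher in 4 of 4 pairs, with a log2 fold change of 0.40 (SE 0.27, adjusted p = 0.793; with the block 0.36, adjusted p = 0.0518). Igf2r, Meg3, Rian and Grb10 were also higher in 4 of 4 polysome pairs. Peg3 was at 0.09 (SE 0.81) and was -0.56 without replicate 2 and -0.17 with the block, so its direction depended on 1 replicate. Polysome standard errors exceeded those of input for 7 of the 8 genes, with Meg3 as the exception.

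Polysome loading, taken as the siRNA effect in polysomes minus that in input, was not called for any member. No gene of the 12805 passed edgeR's quasi-likelihood test, 100 had an unadjusted p under 0.05, and DESeq2 called 1, which was no member. With the replicate number as a block within each fraction 2 genes were lower, neither of them a member, and 637 had an unadjusted p under 0.05. The noncoding genes had values near 0 with standard errors that leave changes in either direction possible: Meg3 had 0.05 (SE 0.33) and Rian -0.07 (SE 0.39) on the log2 scale. Mest was at 0.12 (SE 0.21), Peg10 at 0.07 (SE 0.29), Grb10 at 0.04 (SE 0.32) and Snrpn at -0.05 (SE 0.34). Igf2r had the largest value, 0.67 (SE 0.68), and Peg3 the next, 0.48 (SE 0.89), and without replicate 2 these were 0.07 and -0.09.

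The genes whose level over the 16 libraries was most like that of a member were sought among the 9139 genes that averaged 10 CPM or more, by Pearson's r of log2 levels. Rian was most like Mirg (r = 0.996, and 0.99 over the 8 input libraries), its neighbour in the cluster. Meg3 was most like Firre, a nuclear noncoding RNA of the X chromosome (r = 0.996, and 0.903 over input). Igf2r was most like Ep400, a large chromatin remodeller gene (r = 0.998, and 0.917 over input), and Peg3 most like Kif14 (r = 0.994, and 0.925 over input). Mest was most like Nptn (r = 0.99, and 0.842 over input), and Snrpn most like Rnf10 (r = 0.977, but only 0.436 over input). Grb10 was most like Piwil2 (r = 0.946, and 0.906 over input) and Peg10 most like Fgd6 (r = 0.943, and 0.925 over input). The 16 libraries are 8 extracts measured in 2 fractions, so the points are not independent.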

How the data were processed

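RNA from input and pooled polysome fractions of RAM siRNA and control ESCs was sequenced from ribosomal RNA-depleted, stranded total RNA libraries, 4 per group. Per the labels and the study's methods, the authors mapped reads to GRCm38 with STAR 2.5.1b and deposited raw counts per gene from HTSeq. The strand setting, overlap setting and annotation release are not given in the sources used here. Symbols were matched for 46488 of 46983 gene IDs, and coordinates, exon lengths and overlaps are those of GENCODE vM21 on GRCm38. CPM were computed with TMM scaling over the 16 libraries. The labels name the groups and replicate numbers, and the study describes the replicates as biological, from transfections done separately.

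Genes with at least 1 CPM in at least 10 libraries (12805) were tested with edgeR 4.0.16 in R 4.3.3 (glmQLFit and glmQLFTest), with Benjamini-Hochberg adjustment over all genes tested and a threshold of 0.05. Comparisons within a fraction or an siRNA used the 8 libraries concerned, and polysome loading all 16. Standard errors are the log2 fold change divided by the square root of F. Per-replicate log2 values used a pseudocount of 0.5 CPM. H19 and Igf2, under the filter, were compared by counts, exact intervals and exact permutation tests. Fits were tested on simulated data. Libraries of a group differed by more than counting noise (chi-square per gene of at least 3.23), so none was counted as a copy.

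The numbers pair the samples: in the 9140 genes that averaged 10 CPM or more, the deviations of same-numbered libraries from the means of their groups correlated between control and RAM siRNA with an r of 0.40 to 0.80 in input and 0.63 to 0.94 in polysomes, and input with polysome libraries with an r of 0.24 to 0.57 in control and 0.30 to 0.71 in RAM siRNA cells. A fit with the replicate number as a block was therefore also made. Other alternatives were DESeq2 1.42.0, scaling by RLE, by the upper quartile or by library size, a filter of 1 CPM in 4 libraries or none, a threshold of 0.01, all 16 libraries in 1 fit, replicates 1 and 2 or 3 and 4 only, and each replicate left out.

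The members and lists were chosen with earlier results of these data known. Genes named are the 10 members, up to 6 called genes of each list of other imprinted, imprint and methylation, and IGF pathway genes by smallest p, all reference noncoding genes tested, the most alike gene per member, and Ramac. Gm38393, Snurf, Copg2, Ndn, Gatm, Mirg and Snhg14 in input, Igf1r, Insr, Igf2bp3, Zfp57, Trim28, Dnmt1, Tet1 and Tet2 were named after their values were seen.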

Additional observations from a re-analysis of the deposited data

Results flagged for a closer look

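In 40 groups of 4 libraries (10 genes in 4 groups), 4 had a library that stood apart from the other 3 by Dixon's criterion, where chance flags about 1 in 20 groups (5%). Igf2r in RAM siRNA polysomes had 408 CPM in replicate 2, and Peg3 in the same group had 33.8 CPM in replicate 2. In control input, Meg3 had 206 CPM in replicate 3 and Snrpn had 17.8 CPM in replicate 4. Without replicate 2, the siRNA log2 fold change in polysomes was 0.18 for Igf2r and -0.56 for Peg3. Replicate 3 also held the highest Meg3 level of RAM siRNA input, 306 CPM, and replicate 4 the highest Snrpn level of every group.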

How the results depend on the processing

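Of 557 values of single members under the alternatives, 502 kept their direction and their side of the threshold, 22 changed direction, 14 lost and 19 gained a call. The count of members called in input, 1, was 6 with the replicate block, 2 with no filter, 0 at an adjusted p under 0.01, 4 with replicates 1 and 2 only, 0 with replicates 3 and 4 only, 0 with all 16 libraries in 1 fit, and 0 to 1 without 1 replicate. That of other imprinted coding genes, 12, was 20 with the replicate block, 0 with replicates 3 and 4 only, 1 with all 16 libraries in 1 fit, and 1 to 9 without 1 replicate; these alternatives for that list were chosen after seeing the data. In polysomes the block called 11 of these genes higher and 1 lower, and 2 of the other imprinted noncoding genes higher, against 0 without it. The counts of members called in the other comparisons stayed within 1.5 times the reported ones under the alternatives run. DESeq2 gave no adjusted p for Igf2r between the fractions of RAM siRNA cells. Among the members, the block changed no call other than those given above. Over all genes, calls in input went from 914 higher and 744 lower to 2641 and 2398 with the block, to 349 and 277 at an adjusted p under 0.01, to 182 and 163 without replicate 1, to 300 and 214 without replicate 2, to 0 with replicates 3 and 4 only, and to 100 and 86 with all 16 libraries in 1 fit. In polysomes they went from 0 higher and 3 lower to 1052 and 897 with the block, to 156 and 144 with DESeq2 and to 204 and 249 with all 16 libraries in 1 fit.

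Directions that changed belonged to values that passed no test. The siRNA change in polysomes of Peg3 was -0.17 with the replicate block, -0.24 with replicates 3 and 4 only and -0.56 to 0.28 without 1 replicate, and that of Snrpn -0.30 with replicates 1 and 2 only and -0.0551 to 0.17 without 1 replicate. Polysome over input of Peg10 was -0.15 in control and -0.0887 in RAM siRNA cells with replicates 3 and 4 only, and that of Grb10 in RAM siRNA cells 0.15 with replicates 1 and 2 only and -0.49 to 0.0147 without 1 replicate. For polysome loading, Rian was at 0.004 with no filter and 0.0042 with replicates 1 and 2 only, Snrpn at 0.0018 with the filter of 1 CPM in 4 libraries, 0.0228 with no filter and 0.22 with replicates 3 and 4 only, and Grb10 at -0.14 with replicates 3 and 4 only. Without 1 replicate, loading was -0.0259 to 0.16 for Meg3, -0.0861 to 0.65 for Peg3, -0.0165 to 0.19 for Peg10, -0.16 to 0.0947 for Snrpn and -0.11 to 0.19 for Grb10. The cause was not tested. Library-size scaling moved the median of all genes between control fractions from 0.033 to -0.09. Depth limits H19 and Igf2, which have at most 56 counts in any library.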
